A study of Homo sapiens with 4 samples.

Results

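The 10 genes described here encode phospholipase C (PLC) isoforms of the beta, gamma, delta and epsilon classes. They are PLCB1, PLCB2, PLCB3, PLCB4, PLCG1, PLCG2, PLCD1, PLCD3, PLCD4 and PLCE1. They were chosen by name, with earlier results of these data known. The RefSeq accession in each probe name tied the probes to the genes. All 10 were on the array, among 17217 named genes, each with 1 target of 3 probes. The message was measured in HEK293 cells, a human embryonic kidney line transformed with adenovirus DNA and grown in serum-containing medium with no treatment. There were 4 replicates of this single group, each from its own culture plate, on single-colour arrays. The design therefore holds no comparison between conditions, and the question is which isoforms the cells contained message for.

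Phospholipase C cleaves the membrane lipid phosphatidylinositol bisphosphate into inositol trisphosphate, which releases calcium from internal stores, and diacylglycerol, which recruits protein kinase C. The classes share this reaction and differ in what switches them on. Beta isoforms answer to the Gq class of G protein alpha subunits and to beta/gamma subunits, gamma isoforms to tyrosine kinases, delta isoforms to calcium, and the epsilon isoform to small GTPases such as Ras and Rap. HEK293 cells are often used to read out transfected Gq-coupled receptors by calcium release, a reaction that runs through endogenous phospholipase C.

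Levels are log2 intensities, and the 3 probes of a target were averaged on the linear scale before log2 was taken. Following the study's rule, the baseline of an array was the mean of seminal protein genes, thought not to be transcribed in the line, plus 2 SD. The distance of a gene is its level minus that baseline, and a gene counted as detected where its mean distance was above 0. The baseline was 9.47, 9.94, 10.69 and 10.32 log2 units on replicates 1 to 4. Of all named genes, 52.7% were detected. A limma test of the distances against 0, adjusted over the 17217 genes, called 45.9% above and 41.0% below the baseline. Its standard error over the 4 arrays was 0.351 for every gene, so its p-values do not reflect the spread of a single gene. Probes differ in affinity, so distances place a gene against the baseline and do not rank the isoforms by abundance. Common reference genes were detected without exception (8 of 8). So were the neurofilament and other intermediate filament genes known from this line (5 of 5), with NEFL at 4.01 ± 0.56 (SD, n = 4). One of them, NEFM, split the arrays, with levels of 13.57 and 13.09 log2 units on replicates 1 and 3 but 8.32 and 8.08 on replicates 2 and 4. Of 6 embryonic kidney markers 3 were detected, and PAX2 and PAX8 were below the baseline. None of 6 mature kidney markers was detected.

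Of the 10 isoforms, 7 were detected (70%, against 52.7% of all named genes). Their median distance was 1.62 log2 units, against 0.26 for all named genes. PLCB3, PLCG1, PLCG2, PLCD3, PLCD4 and PLCE1 lay above the baseline on all 4 arrays, as 45.0% of all genes did, and the limma test called these 6. PLCB2, PLCB4 and PLCD1 lay below it on all 4 arrays, as 39.8% of all genes did, and the test called these 3 below. PLCB1 was detected but lay on both sides of the baseline. Every class thus had at least 1 detected isoform, and the beta and delta classes each also had members under the baseline.

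**Figure D1:**
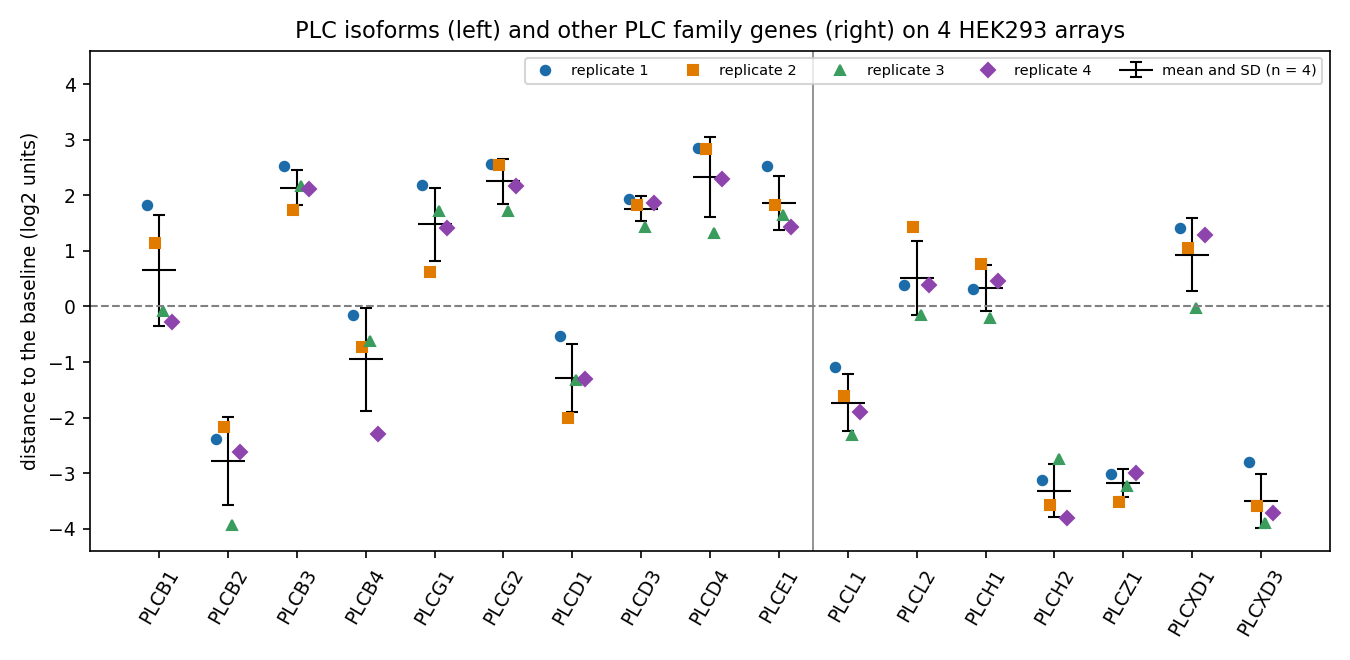
Distance to the baseline in log2 units (vertical axis) of the 10 PLC isoforms, left of the line, and 7 other genes of the family, right of it. Each symbol is 1 array, and bars give the mean and SD over 4 arrays. The dashed line at 0 is the baseline, which 6 isoforms exceed on every array, PLCB1 straddles, and PLCB2, PLCB4 and PLCD1 do not reach.

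Among the beta isoforms, PLCB3, which is found in many tissues, had distances of 2.53, 1.74, 2.17 and 2.12 log2 units on replicates 1 to 4. All 4 arrays lay well above the baseline, with a mean of 2.14 ± 0.32 (SD, n = 4; limma adjusted p = 1.9e-09). Its 3 probes gave similar values, with mean distances from 1.93 to 2.25, and all 12 probe values were above the baseline. PLCB2, an isoform abundant in blood cells, had distances of -2.39, -2.16, -3.93 and -2.62. It was under the baseline on every array and with every probe, at -2.78 ± 0.79 (SD, n = 4; limma adjusted p = 7.1e-15 for a level below the baseline). On each array its level stood between the 3.4th and the 26.6th percentile of all named genes.

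PLCB1, an isoform prominent in brain, had distances of 1.82, 1.15, -0.09 and -0.28 log2 units on replicates 1 to 4. It was above the baseline on replicates 1 and 2 and just below it on replicates 3 and 4. The mean of 0.65 ± 1.00 (SD, n = 4) was smaller than its SD, and the limma test did not call it (limma adjusted p = 0.07). Without replicate 3 the mean was 0.90 (limma adjusted p = 0.019) and without replicate 4 it was 0.96 (limma adjusted p = 0.037). Without replicate 1 it was 0.26 (limma adjusted p = 0.47) and without replicate 2 it was 0.48 (limma adjusted p = 0.28). The levels before subtraction were 11.29, 11.08, 10.60 and 10.04, so replicates 3 and 4 were also the lower arrays without the baseline. Replicates 1 and 2 share one distribution of values and replicates 3 and 4 another, and the mean distance was 1.48 in the former pair and -0.18 in the latter. The part of this pairing in the difference was not tested.

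PLCB4, a close relative of PLCB1 known from the cerebellum and retina, had distances of -0.16, -0.73, -0.62 and -2.29. None of the arrays reached the baseline, and replicate 4 was the lowest. The mean was -0.95 ± 0.93 (SD, n = 4; limma adjusted p = 0.0088 for a level below the baseline). This test used the standard error shared by all genes, not the spread of PLCB4 itself. The call rested on replicate 4, since without it the mean was -0.50 (limma adjusted p = 0.31). The 3 probes of PLCB4 spread over 2.14 log2 units, with mean distances from -2.48 to -0.34, and 1 of 12 probe values was above the baseline.

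Both gamma isoforms were above the baseline on all 4 arrays. PLCG1, the widely expressed isoform that growth factor receptors act on, had distances of 2.19, 0.62, 1.72 and 1.41, a mean of 1.48 ± 0.66 (SD, n = 4; limma adjusted p = 3.3e-05). Replicate 2 was the lowest array. Its probes did not move together. The first probe ran from 10.56 on replicate 2 to 13.53 on replicate 3, while the last ran from 10.34 on replicate 3 to 11.72 on replicate 1. In all, 10 of 12 probe values of PLCG1 were above the baseline.

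PLCG2, known above all as the isoform of B cells, platelets and other blood cells, had distances of 2.57, 2.55, 1.72 and 2.17. All 4 arrays and all 12 probe values were above the baseline, and the mean was 2.25 ± 0.40 (SD, n = 4; limma adjusted p = 2.7e-10). The 3 probes had mean distances of 1.38, 2.71 and 2.32. Its level before subtraction was 12.04, 12.49, 12.41 and 12.49, between the 67.5th and the 75.5th percentile of named genes. Of 8 blood cell markers, which included PTPRC, LYZ and SPI1, none was detected, and each was below the baseline on all 4 arrays. The mean distance over the 8 ranged from -2.85 to -2.55 between arrays. PTPRC, which encodes the common leukocyte antigen CD45, stood at -3.50 ± 0.50 (SD, n = 4), and CD79A, the highest of them, at -0.75 ± 0.45 (SD, n = 4).

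The regions just before both gamma genes are shown because they are the pair of one class that was detected throughout and yet differ in sequence. They come from RefSeq on GRCh38.p14, which held a window for 5 of the 10 genes (PLCB3, PLCD3, PLCE1, PLCG1 and PLCG2). Each line gives the 150 bases before the annotated gene start, on the strand of the gene, with CpG dinucleotides in capitals. The stretch for PLCG1 is chr20:41137393-41137542 and that for PLCG2 is chr16:81738891-81739040, both on the plus strand.
PLCG1: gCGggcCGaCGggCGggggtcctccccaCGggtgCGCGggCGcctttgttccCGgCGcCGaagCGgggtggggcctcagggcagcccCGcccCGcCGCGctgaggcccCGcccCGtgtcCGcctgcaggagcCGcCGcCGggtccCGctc
PLCG2: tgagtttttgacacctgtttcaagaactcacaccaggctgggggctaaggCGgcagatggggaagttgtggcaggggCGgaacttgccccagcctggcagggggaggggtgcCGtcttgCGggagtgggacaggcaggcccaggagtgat

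Over 250 bases before the start, PLCG1 held 41 CpG dinucleotides and PLCG2 held 4, against a median of 11 over 35116 windows of this length. The GC content was 82.8% for PLCG1 and 54.4% for PLCG2, against a median of 58%. The letters GGGCGG, a GC box, searched on both strands, occurred 3 times for PLCG1 and 1 time for PLCG2, and 42.6% of all windows held them. CCAAT and TATAAA were in neither window, and 32% and 10.7% of all windows held them. PLCB3 with 27 and PLCD3 with 24 CpG dinucleotides were nearer to PLCG1, and PLCE1 with 3 was nearer to PLCG2. All 5 genes were detected, so these windows give no contrast with undetected isoforms. The windows were matched by gene symbol, so their starts need not be those of the transcripts the probes were designed on. The arrays did not measure which start the cells used.

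Among the beta, gamma, delta and epsilon classes, the delta isoforms are the most sensitive to calcium. PLCD3 had distances of 1.94, 1.82, 1.43 and 1.86, above the baseline on every array and with all 12 probe values. Its mean of 1.76 ± 0.23 (SD, n = 4; limma adjusted p = 7.8e-07) had the smallest SD between arrays of the 10 isoforms. PLCD4 had distances of 2.85, 2.83, 1.33 and 2.30, with replicate 3 the lowest. Its mean was 2.33 ± 0.72 (SD, n = 4; limma adjusted p = 6.7e-11). The height of PLCD4 owed most to its first probe, whose mean distance was 3.30, against 0.78 and 1.49 for the other probes. With the median of the probes in place of their mean, PLCD4 stood at 1.63, still above the baseline by the limma test.

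PLCD1, the isoform on which much of the structural work on the enzyme was done, had distances of -0.53, -2.01, -1.32 and -1.30. No array reached the baseline, and the mean was -1.29 ± 0.61 (SD, n = 4; limma adjusted p = 0.00034 for a level below the baseline). Of its 12 probe values 1 was above the baseline, that of the second probe on replicate 1. In levels before subtraction its first probe ran most widely, from 6.58 on replicate 1 to 9.78 on replicate 3.

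PLCE1, which binds Ras and Rap and is also known as a podocyte gene in kidney, had distances of 2.53, 1.83, 1.64 and 1.43. All 4 arrays were above the baseline, with a mean of 1.86 ± 0.48 (SD, n = 4; limma adjusted p = 1.9e-07). The span between its probe means, 2.68 log2 units, was the widest of the 10 isoforms. The first probe had a mean distance of -0.04, and the other probes had 2.64 and 1.84. Over the 10 isoforms the median span between the 3 probe means was 1.25 log2 units, against 1.48 over 19125 named targets.

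**Figure D2:**
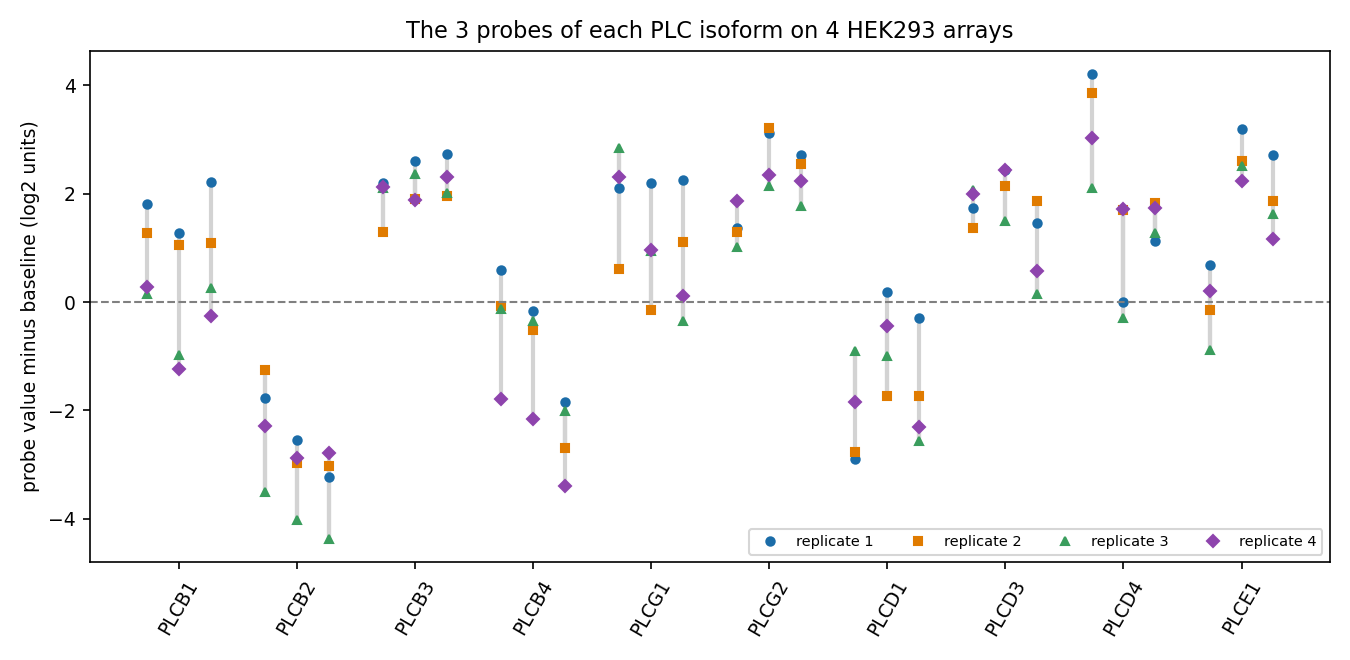
Single probe values minus the array's baseline in log2 units (vertical axis) for the 10 PLC isoforms. Each grey bar joins the 4 arrays of 1 probe, with the first probe of a gene at the left and the last at the right. All 12 values of PLCB3, PLCG2 and PLCD3 lie above 0, all 12 of PLCB2 lie below it, and the probes of PLCD4 and PLCE1 lie furthest apart.

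The distances of the isoforms were taken from a baseline that differed between arrays. Replicate 1, which had the lowest baseline, gave the highest distance for 9 of the 10 isoforms but the highest level before subtraction for 1. Replicate 3, which had the highest baseline, gave the lowest distance for 4 isoforms, and replicates 2 and 4 gave it for 3 each. On single arrays 7 isoforms were above the baseline on each of replicates 1 and 2, and 6 on each of replicates 3 and 4. The share of all named genes above it was 58.1%, 54.2%, 47.4% and 50.2% on replicates 1 to 4. For all 6 isoforms above the baseline on every array, the mean distance was positive both on replicates 1 and 2 alone and on replicates 3 and 4 alone. The lowest such value was 1.40, for PLCG1 on replicates 1 and 2. The isoforms were also set out along the division of replicates 1 and 3 from 2 and 4 that NEFM showed. Before subtraction, the levels of PLCB2, PLCG2 and PLCD4 were higher on replicates 2 and 4 than on 1 and 3, those of PLCB4 and PLCE1 were lower, and those of the other 5 isoforms overlapped. The share of all named genes that separated in this way was not worked out, so these counts are not a result about the family. On replicates 1 and 3 alone and on replicates 2 and 4 alone, 7 isoforms were detected and 6 were called above the baseline. Of all named genes, 53.6% and 52.4% were then detected, and 40% and 45.5% were called above the baseline. On replicates 1 and 3 alone PLCB4 stood at -0.39 and PLCD1 at -0.92, and the limma test no longer called them below it (adjusted p = 0.63 and 0.19).

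Beyond the 10 isoforms, 8 other genes of the family were listed, and 7 were matched. PLCL1 and PLCL2 encode relatives without catalytic activity, PLCH1 and PLCH2 the eta isoforms of the nervous system, PLCZ1 the isoform of sperm, and PLCXD1 and PLCXD3 smaller proteins with a PLC-type domain. PLCXD2 was not matched. Of the 7, 3 were detected (42.9%, against 52.7% of all named genes). None lay above the baseline on all 4 arrays, against 45.0% of all genes. The limma test called 1 above and 4 below the baseline, against 45.9% and 41.0% of all genes. PLCXD1, with a mean distance of 0.93 ± 0.66 (SD, n = 4), was the 1 gene of these that the test called above the baseline (limma adjusted p = 0.0092). Without replicate 4 it stood at 0.81 (limma adjusted p = 0.077). PLCL2 was at 0.51 ± 0.66 and PLCH1 at 0.33 ± 0.41 (SD, n = 4 for each), and neither passed the limma test, at adjusted p-values of 0.15 and 0.35. Without replicate 2 they stood at 0.20 and 0.19, and without replicate 3 PLCH1 stood at 0.51. The first probe of PLCL2 read 5.91 on replicate 1 and 11.30 to 12.27 on the others. The probes of PLCH1 had mean distances of 1.42, -0.28 and -2.89, so only its first probe lay above the baseline on average. PLCL1 at -1.73 ± 0.51, PLCH2 at -3.31 ± 0.48, PLCZ1 at -3.18 ± 0.25 and PLCXD3 at -3.50 ± 0.49 (SD, n = 4 for each) were called below the baseline. None of 4 sperm markers was detected.

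Genes that act just before and after phospholipase C were taken from lists of 100 genes, also chosen with earlier results of these data known. Of the 100 genes, 97 were matched. Of these, 68 (70.1%, against 52.7% of all named genes) were detected. The limma test called 58 above and 26 below the baseline, against 45.9% and 41.0% of all genes. Their median distance was 1.49 log2 units, against 0.26 for all named genes. The same shares of all genes are the background for the counts of each list below.

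Of the activators of the beta isoforms, 2 of 4 Gq class alpha subunits were detected. GNA11 stood at 3.08 ± 0.60 and GNAQ at 2.45 ± 0.76 (SD, n = 4 for each), both above the baseline on all 4 arrays. GNA14 at -1.15 ± 0.65 and GNA15 at -2.08 ± 0.69 (SD, n = 4 for each), the latter a subunit of blood cells, were below it on all 4 arrays. Small GTPases, which act on PLCE1 and on some beta and gamma isoforms, gave 9 of 11 detected. RHOA stood at 4.77 ± 1.11 and RAC1 at 4.24 ± 0.88, and RAP2B at -2.90 ± 0.40 (SD, n = 4 for each).

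Tyrosine kinases and adaptors that work with the gamma isoforms gave 9 of 21 detected (42.9%, against 52.7% of all named genes). The limma test called 4 above and 12 below the baseline, against 45.9% and 41.0% of all genes. The adaptor GRB2 stood at 3.22 ± 0.62 and the kinase SYK, which acts on PLCG2 in B cells, at 2.98 ± 0.67 (SD, n = 4 for each). The kinase BTK and the adaptors BLNK, LAT and LCP2, which join PLCG2 or PLCG1 to antigen receptors, were chosen from this list after their values were seen. They stood at -2.78 ± 0.39, -2.89 ± 0.50, -2.47 ± 0.73 and -2.98 ± 0.51 (SD, n = 4 for each). Each of these was below the baseline on all 4 arrays, on which SYK and PLCG2 were above it.

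Enzymes and transfer proteins that supply the substrate gave 17 of 19 detected, 16 of them on all 4 arrays. PI4KA, a phosphatidylinositol kinase, stood at 4.41 ± 0.58 and the transfer protein PITPNB at 4.28 ± 0.79, while PITPNM3 stood at -2.17 ± 0.39 (SD, n = 4 for each). On the inositol trisphosphate side, all 3 receptors that release stored calcium were detected. ITPR3 stood at 2.75 ± 0.41 and ITPR2 at 1.51 ± 0.73, both on all 4 arrays, and ITPR1 at 1.42 ± 1.24, below the baseline on replicate 3 (SD, n = 4 for each). Genes that remove inositol trisphosphate and its products gave 10 of 11 detected. The phosphatases OCRL and INPP5A stood at 3.62 ± 0.86 and 2.93 ± 0.69, and the kinase ITPKA at -1.63 ± 0.61 (SD, n = 4 for each).

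On the diacylglycerol side, 11 of 16 effectors and 7 of 12 genes for its removal were detected. CHN1, a Rac-inactivating protein that binds diacylglycerol, stood at 4.38 ± 0.56 and protein kinase C alpha (PRKCA) at 3.35 ± 0.62, while the Ras activator RASGRP3 stood at -2.22 ± 0.48 (SD, n = 4 for each). Of the removing enzymes, the kinase DGKA stood at 2.50 ± 0.52 and the lipase DAGLB at 2.16 ± 0.38, and the kinase DGKI at -3.24 ± 0.17 (SD, n = 4 for each).

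**Figure D3:**
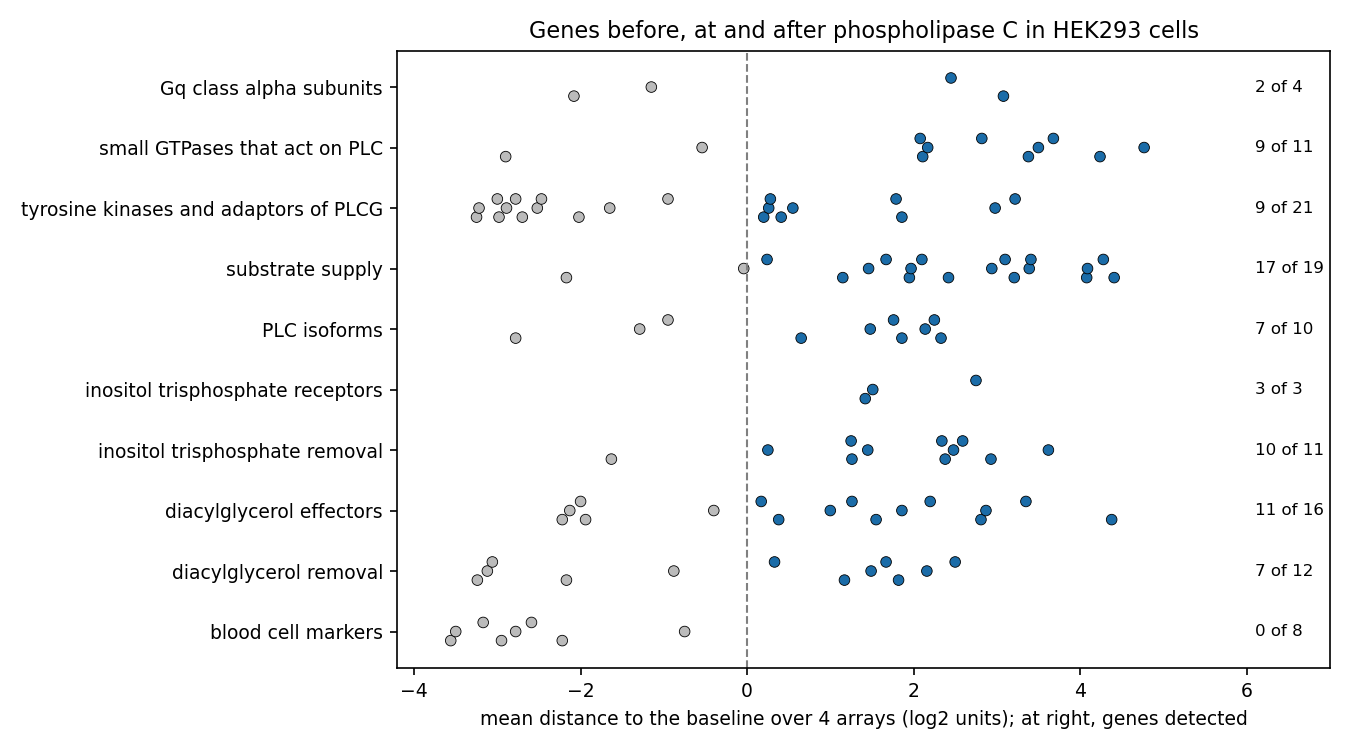
Mean distance to the baseline over 4 arrays in log2 units (horizontal axis) of genes before, at and after phospholipase C, with blood cell markers in the last row. Each point is 1 gene, blue where detected and grey where not, and the numbers at the right give genes detected of genes matched. Most substrate supply genes (17 of 19) lie to the right of the dashed baseline, and all 8 blood cell markers lie to the left.

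The height of the baseline decided how many isoforms were detected. AFG2A (SPATA5) and SPATA13, which lay above the other 8 control genes on each array, set much of it, and without them 9 isoforms and 74% of all named genes were detected. PLCB4 then stood at 1.38 (limma adjusted p = 2.2e-05 for a level above the baseline) and PLCD1 at 1.04 (limma adjusted p = 0.00041). The limma test thus called both above the baseline, where it had called them below. It called 9 isoforms and 68.6% of all named genes above the baseline. PLCB2 at -0.45 was the 1 isoform with a mean below it. With 3 SD in place of 2, 6 isoforms and 39.1% of all named genes were detected. The limma test then called 28.6% of all genes above the baseline and 2 of the isoforms, PLCG2 at 0.94 and PLCD4 at 1.01. The 6 isoforms called above the baseline had positive distances under every alternative run, and PLCB2 had negative ones.

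**Figure D4:**
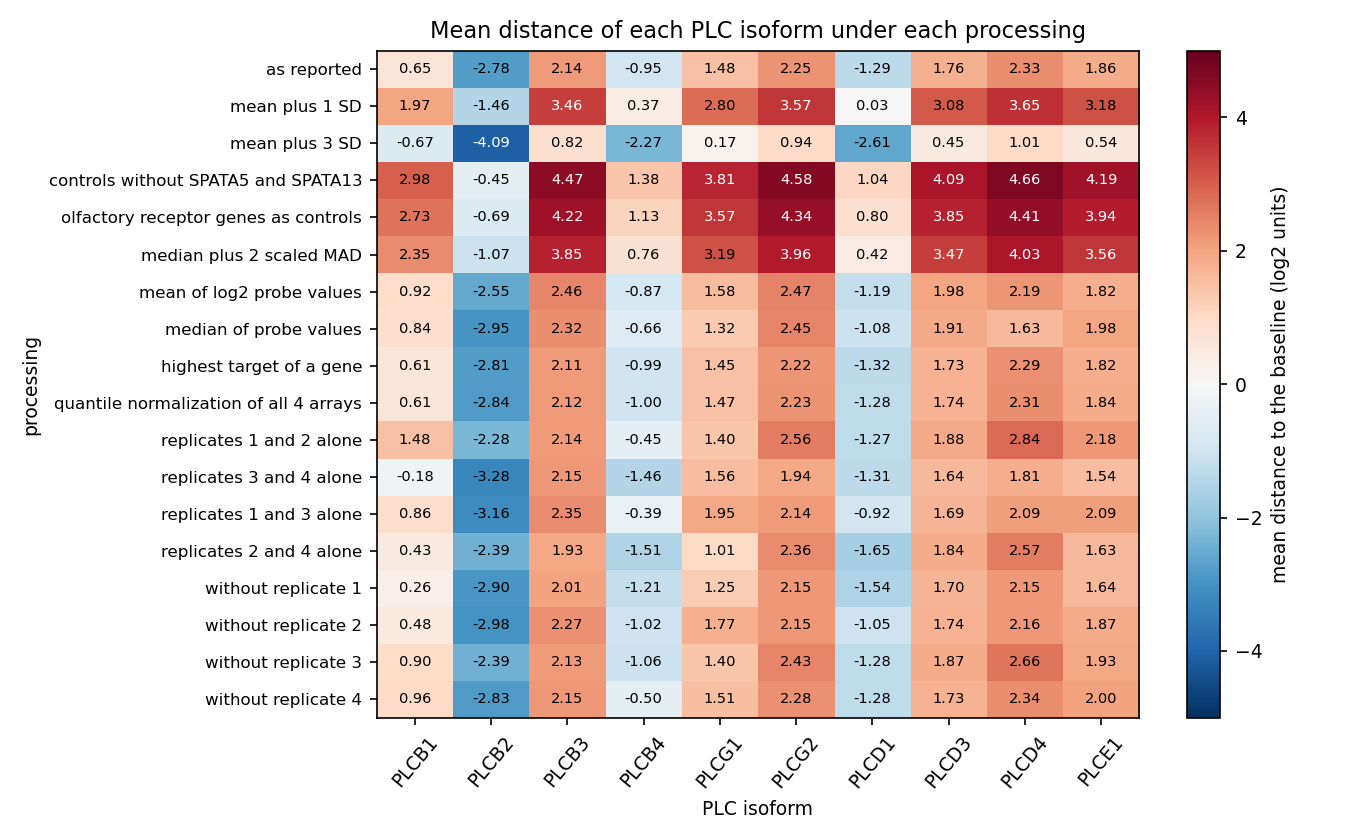
Mean distance to the baseline in log2 units (colour scale and printed values) of the 10 PLC isoforms (columns) as reported and under each other processing (rows). Columns of PLCB3, PLCG1, PLCG2, PLCD3, PLCD4 and PLCE1 stay above 0 and PLCB2 stays below 0, while PLCB1, PLCB4 and PLCD1 change sign in at least 1 row.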

How the data were processed

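Total RNA of 4 untreated HEK293 cultures was hybridised to NimbleGen expression arrays designed on HG18. The authors deposited log2 intensities, 1 per probe and array (71998 probes). The submitters' processing notes name RMA, whose steps were not described further; sorted values agreed within 0.01 at 99.97% of ranks between replicates 1 and 2 and at 99.99% between replicates 3 and 4, but at 1.23% to 1.25% across these pairs. Probe accessions were matched to RefSeq (GRCh38.p14), which named 19125 of 24000 targets. The baseline used 10 of the 11 seminal genes of the study, as PYY2 was not matched. A gene's level was the mean of its targets. Distances were tested with limma 3.58 in R 4.3 (intercept only, one-sided above and one-sided below, Benjamini-Hochberg at 0.05 over all named genes). The prior degrees of freedom were infinite, so all genes shared a standard error of 0.351, and the scatter of the control genes, from which each baseline was set, was not carried into the test. With 4 arrays the smallest p of an exact sign-flip test is 0.0625. The number of arrays limits the precision.

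The members and lists were chosen with earlier results of these data known. Named were all members, the other family genes, the Gq class and inositol trisphosphate receptor genes, and in each other list the highest 2 above the baseline on all 4 arrays and the lowest 1, except for an item that is not reported here. Probe sequences were not used here.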

Additional observations from a re-analysis of the deposited data

Results flagged for a closer look

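Over 34 tests of levels and distances of the 10 isoforms and 7 other family genes, 1 array stood apart by more than the critical value of Dixon's test for 4 samples, and chance marks about 1 in 20. It was the level of PLCH2 before subtraction on replicate 3, at 7.95 log2 units, with a ratio of gap to range of 0.901. As a distance the same array gave 0.354, and PLCH2 was below the baseline on all 4 arrays. The cause was not tested.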

How the results depend on the processing

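The analyses of replicates 1 and 3 alone and of replicates 2 and 4 alone were added after the data had been seen. The baseline was 8.79 with 1 SD, 11.42 with 3 SD, 7.78 without SPATA5 and SPATA13, 8.02 with olfactory receptor genes as controls and 8.40 with the median and scaled median absolute deviation (MAD). These lower baselines left 1, 0, 1 and 1 isoforms called below the baseline in place of 3 (1 SD, without SPATA5 and SPATA13, olfactory controls, MAD), and 9 were detected under each. Of all named genes, 64.3%, 74%, 71.4% and 67.7% were then detected and 29.2%, 15.8%, 20.4% and 24.3% called below. In the same order, 7, 9, 9 and 8 isoforms were called above, against 58.9%, 68.6%, 66.3% and 62.3% of all named genes. With 3 SD, 2 isoforms were called above it, against 28.6% of all named genes. None of the other family genes was then detected, against 39.1% of all named genes. PLCB1 turned to -0.67 with 3 SD and to -0.18 on replicates 3 and 4 alone. PLCB4 turned to 0.37 with 1 SD, 1.38 without SPATA5 and SPATA13, 1.13 with olfactory controls and 0.76 with MAD, and PLCD1 to 0.03, 1.04, 0.80 and 0.42. PLCB4 was called above the baseline in all of these but 1 SD (limma adjusted p = 2.2e-05, 0.00056 and 0.02). PLCD1 was called above it without SPATA5 and SPATA13 and with olfactory controls (limma adjusted p = 0.00041 and 0.0048). PLCL1 turned to 0.60 without SPATA5 and SPATA13 and 0.36 with olfactory controls. With 3 SD, PLCL2 turned to -0.81, PLCH1 to -0.99 and PLCXD1 to -0.39, and PLCH1 also to -0.25 with the mean and -0.14 with the median of log2 probe values. On replicates 1 and 3 alone, 1 isoform was called below the baseline, as were 35.5% of all named genes. Of 180 alternative values for the isoforms, 151 kept their direction and call, 10 changed sign, 10 lost and 9 gained a call. The sign changes include those of PLCB4 and PLCD1 that went from called below to called above. Quantile normalization of all 4 arrays together left 7 detected and changed no isoform's call. No paired analysis was possible because the design holds 1 group.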
